A study of Mus musculus with 8 samples.

Results

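The 63 protein-coding genes described here are the WNT pathway genes of the count table: every Wnt ligand (19), Frizzled receptor (10), secreted Frizzled-related protein (4) and Dickkopf gene (4) by name, and 26 further genes chosen by symbol for ligand release, co-reception, receptor turnover, signal relay and transcription. They were taken by name from 56884 annotated genes. Bulk mRNA was sequenced from Lacun3 cells, an established line of murine lung adenocarcinoma. The parental line, with intact Stk11 (STK11 WT, here WT), was set against a line in which Stk11 had been disrupted by CRISPR (STK11 KO, here KO), with 4 biological replicate libraries of each, from untreated cells in log-phase growth in DMEM with serum. Stk11 encodes the tumour suppressor kinase LKB1, and the comparison asks what its loss changes within the tumour cells themselves. There is 1 line of each genotype, and the labels do not say whether the KO line is a clone or a pool, so an effect of Stk11 loss and any other difference between the 2 lines cannot be told apart. The p-values measure only the spread between these libraries, labelled as biological replicates.

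WNT proteins are secreted lipid-modified ligands. In the canonical branch a ligand binds a Frizzled receptor and the co-receptor LRP5 or LRP6, Dishevelled relays the signal, and the AXIN-APC destruction complex stops degrading beta-catenin, which then activates transcription with TCF and LEF factors. Other branches run through ROR and RYK receptors and planar cell polarity proteins. The pathway restrains itself: AXIN2, NKD1, NOTUM, RNF43 and ZNRF3 are inhibitors whose genes are widely known as targets of beta-catenin, while R-spondins, acting through LGR receptors, keep RNF43 and ZNRF3 from removing Frizzled. In the developing lung, WNT7B from the epithelium acts on the mesenchyme beneath it.

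Libraries held 18837263 to 25715008 counts, with 1 count equal to 0.0388 to 0.0515 CPM (the count scaled to library size). KO libraries were the larger (p = 0.0286, two-sided, by exact permutation, the lowest that 4 against 4 can reach). Stk11 had 64.9, 67.1, 68.4 and 64.7 CPM in the WT libraries and 35.4, 35.1, 33.5 and 35 CPM in the KO libraries, so that about 52.4% of its mRNA remained; the counts cover the whole gene and do not show an edit. KO replicate 3 stood apart from the other KO libraries, with a chi-square per degree of freedom of 13.0 to 18.9 against them and of 3.12 to 8.90 for all other pairs of one genotype. Of 15 lung epithelial markers in a list, 9 were tested, of which 1 rose (Krt19) and 5 fell, beside 34.4% higher and 33.6% lower among all tested genes. Krt7 fell from 1181 ± 25.4 CPM to 317 ± 35.7 CPM (SD, n = 4; edgeR adjusted p = 2.01e-16) and Muc1 fell 2.92-fold. Krt18 fell 1.40-fold without overlap between the groups, and Epcam and Foxa1 fell with overlap (edgeR adjusted p = 8.14e-07, 0.015 and 0.0381). Keratin 8, 18 and 19 kept group means of 1650.3 CPM or more, and Cdh1 had means of 151 and 153 CPM. Cldn4, not tested, had 37 counts in WT and 5 in KO. Of these markers, the lung-defining genes Nkx2-1 and Sftpb had 1 count each and Sftpc and Sftpa1 had 0 counts in the 8 libraries. Napsa, a further marker of the list, had 110 counts in WT and 93 in KO and did not pass (edgeR adjusted p = 0.362). The 15 summed to 9412 to 9899 CPM in WT and 8103 to 9062 CPM in KO libraries. Summed levels of 10 fibroblast and smooth muscle markers were 4.02 to 6 CPM in WT and 2.12 to 3.12 CPM in KO libraries. For 8 endothelial markers they were 1.97 to 3.66 and 3.53 to 5 CPM. Of these, the 2 tested went opposite ways. Mean Cdh5 rose from 1.36 to 4.17 CPM and mean Vwf fell from 1.56 to 0.125 CPM (edgeR adjusted p = 1.89e-07 and 6.65e-08). The 8 immune markers summed to 46.8 to 53.2 and 13.2 to 25.8 CPM, of which Cd68 made up nearly everything, while Ptprc had 1 count and Adgre1 had 0 counts in all. The part of these markers, of depth and of KO replicate 3 in the results below was not tested, beyond the fits without single libraries.

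Of the 63 genes, 31 had enough counts to be tested and 32 had not, among them 11 with no count in any library. By edgeR's quasi-likelihood test 24 of the 31 passed (adjusted p under 0.05), 7 higher and 17 lower in KO. Over all 13707 tested genes 68% passed, 34.4% higher and 33.6% lower, so most genes of any kind passed. Among the 31, 22.6% were higher and 54.8% lower; no test was made of whether this differs from other genes. Wnt7a and Wnt3 were tested only through the counts of the group in which they were high, so their passing is partly built into the filter. Changes of at least 2-fold were 3 higher and 6 lower, against 7.02% and 9.41% of all tested genes. The median log2 fold change (KO over WT) was -0.27 for the 31 genes and 0.01 for all tested genes. In 19 of the 31 the 4 KO values did not overlap the 4 WT values, as in 60.6% of all tested genes. When libraries were scaled by their size alone, 4 WNT genes passed as higher and 20 as lower. Of all 13707 tested genes, 3921 were then higher and 5280 lower, in place of 4721 and 4601. Tcf7l2, Wnt11 and Fzd7 no longer passed as higher, and Axin1, Wls and Dvl2 newly passed as lower. No WNT gene that passed in either fit switched direction. Apc and Porcn, which passed in neither, changed sign (log2 fold change -0.0214 and -0.0017 by library size alone).

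**Figure D1:**
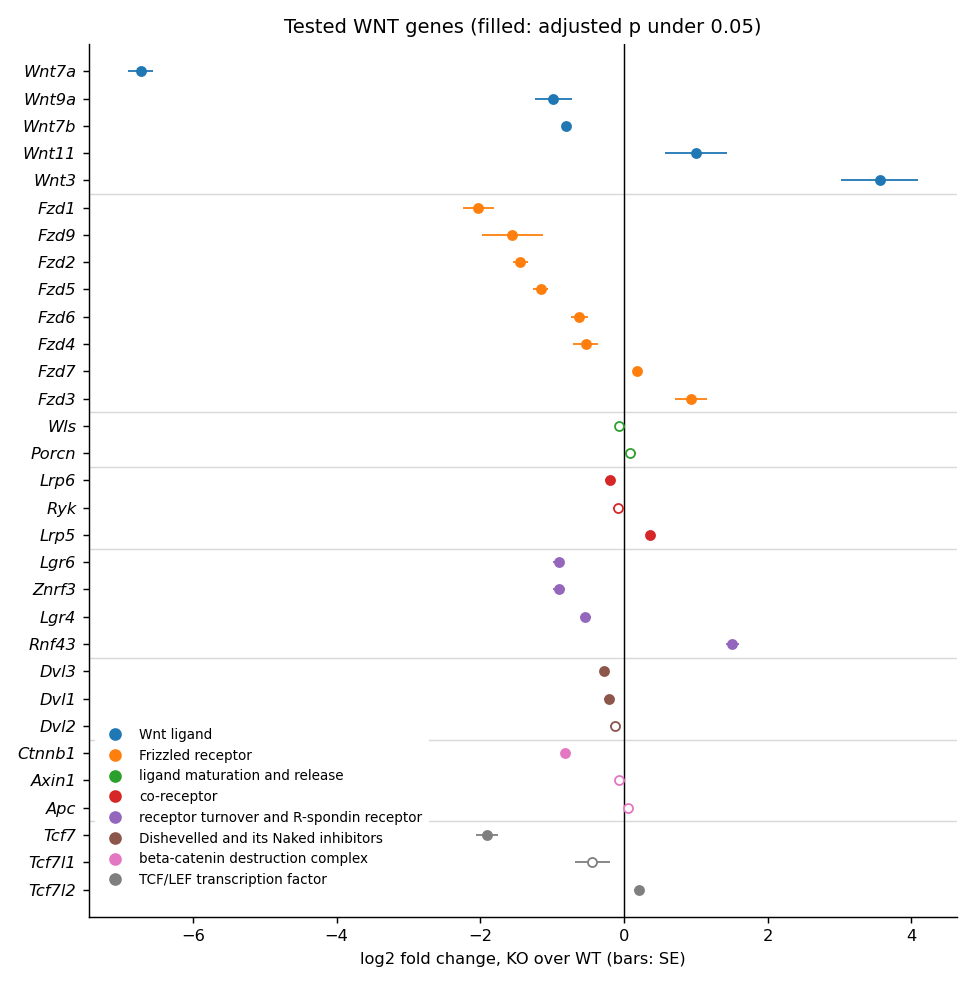
Log2 fold change (KO over WT, bars are SE, 4 libraries per genotype) of the 31 tested WNT genes, grouped by role and ordered within a role; filled points had an edgeR adjusted p under 0.05. Wnt7a at -6.73 lies far to the left of all others, 6 of 8 Frizzled genes lie left of 0, and Wnt3 and Rnf43 lie farthest to the right.

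Among ligands, Wnt7a was the one that KO cells all but lost. WNT7A is a close relative of WNT7B that can signal through beta-catenin and is known for roles in limb patterning, the reproductive tract and brain vessels. The gene (ENSMUSG00000030093.8) lies on chromosome 6, minus strand, 91340963 to 91388345 in GRCm39. It had 23.6, 23.6, 25 and 26.1 CPM in the WT libraries and 0.297, 0.141, 0.194 and 0.278 CPM in the KO libraries, or 2056 counts against 20 over the groups. The lowest WT library lay far above the highest KO library. The log2 fold change was -6.73 ± 0.17 (SE, edgeR adjusted p = 2.86e-19), which left 0.941% of the WT level. The fit's 95% interval of 0.749% to 1.18% is narrower than counting error on 20 counts gives. By counts the ratio of WT to KO was 109, with a 95% counting interval of 70.3 to 179. In bulk RNA, fewer cells with the transcript and less transcript per cell cannot be told apart. The 3 nearest tested protein-coding genes on each side of Wnt7a had log2 fold changes of -1.62 to 0.20. Of these 6, 5 were lower and 1 higher in KO by the same test, beside 33.6% and 34.4% of all tested genes. Around Fzd1, Fzd2, Fzd5 and Tcf7, with 6 such neighbours each, 2, 2, 1 and 3 were lower and 3, 0, 3 and 3 higher. Whether neighbours changed together was not tested.

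Wnt7b was by far the most abundant ligand in both lines, and it fell too. It had 294, 317, 316 and 307 CPM in the WT libraries and 194, 175, 178 and 160.4 CPM in the KO libraries. All KO values lay below all WT values, and the log2 fold change was -0.80 ± 0.06 (SE; edgeR adjusted p = 2.92e-11), leaving 57.3% of the WT level, with a 95% interval of 53% to 62%. Per kilobase of exon, Wnt7b stood at 63 ± 2.15 CPM per kb in WT (SD, n = 4) and Wnt7a at 7.75 ± 0.376, and in KO at 36.1 ± 2.79 and 0.0718 ± 0.023. The level of Wnt7b exceeded that of 94.7% of tested genes in WT and 89.5% in KO. Summed over the 19 ligands, the level per kilobase was 71.8 ± 2.19 CPM per kb in WT and 36.9 ± 2.96 in KO (SD, n = 4). Wnt7b made up 87.6% ± 0.644 of that sum in WT and 97.7% ± 0.274 in KO, and Wnt7a 10.8% ± 0.505 and 0.195% ± 0.0634 (SD, n = 4).

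The remaining ligands were scarce, at or under 1.71 CPM in every library. Wnt9a, a ligand known from joint development, had 1.19, 1.71, 1.15 and 1.6 CPM in the WT libraries and 0.743, 0.942, 0.583 and 0.602 CPM in the KO libraries. Its groups did not overlap and it fell, with a log2 fold change of -0.98 ± 0.26 (SE; edgeR adjusted p = 0.0022). Wnt3, a canonical ligand of embryonic axis formation and the intestinal crypt, went the other way. It had 0.0953, 0, 0.0459 and 0.103 CPM in the WT libraries and 0.842, 0.565, 1.05 and 0.556 CPM in the KO libraries, or 5 counts against 68, a ratio of 12.8 (95% counting interval 5.24 to 40.8) and an edgeR adjusted p of 2e-06. Wnt11, which acts mainly outside the beta-catenin branch, passed narrowly (log2 fold change 1.01 ± 0.43, SE; edgeR adjusted p = 0.0431) with groups that overlapped, 0.714, 0.324, 0.459 and 0.155 CPM in WT and 1.64, 0.66, 0.738 and 0.417 CPM in KO. It failed without KO replicate 1 (edgeR adjusted p = 0.253, log2 fold change 0.55) and without WT replicate 2, 3 or 4 (0.1, 0.0654 and 0.133). It also failed by library size alone, by DESeq2 and by limma on either table, at adjusted p values of 0.0503 to 0.0623.

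Several untested ligands had counts only, or mainly, in WT. Wnt10a, an epithelial ligand of teeth, hair and skin, had 16, 9, 12 and 14 counts in WT and 0 in every KO library. It was 18-fold lower when KO is set to 3 counts for the whole group and the WT counts are taken as they stand. Wnt1 had 4, 0, 5 and 3 counts in WT and 0 in KO (4.24-fold lower when set in the same way). Wnt4 had 25 counts in WT and 5 in KO, and its groups did not overlap. With no filter on low counts these 3 ligands passed the edgeR test at adjusted p = 3.53e-11, 0.00267 and 0.00431. These values are not on the scale of the reported fit. For Wnt7a the unfiltered fit gave an edgeR adjusted p of 1.54e-281, against 2.86e-19, at nearly the same fold change. Wnt5b had 31 counts in WT and 19 in KO with overlapping groups, Wnt6 had 8 and 2, and Wnt2, Wnt2b, Wnt3a and Wnt10b had at most 3 over a group. Wnt5a, Wnt8a, Wnt8b, Wnt9b and Wnt16 had 0 counts in all libraries, which at 3 counts over a group allows up to 0.0358 CPM in WT and 0.0338 CPM in KO. Mouse ligand genes often sit side by side, and 4 such pairs lie within 100 kb of each other: Wnt10a, without a KO count, lies 6193 bp from Wnt6, which had few counts in either line, and Wnt3 rose 24328 bp from Wnt9b, which had none.

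**Figure D2:**
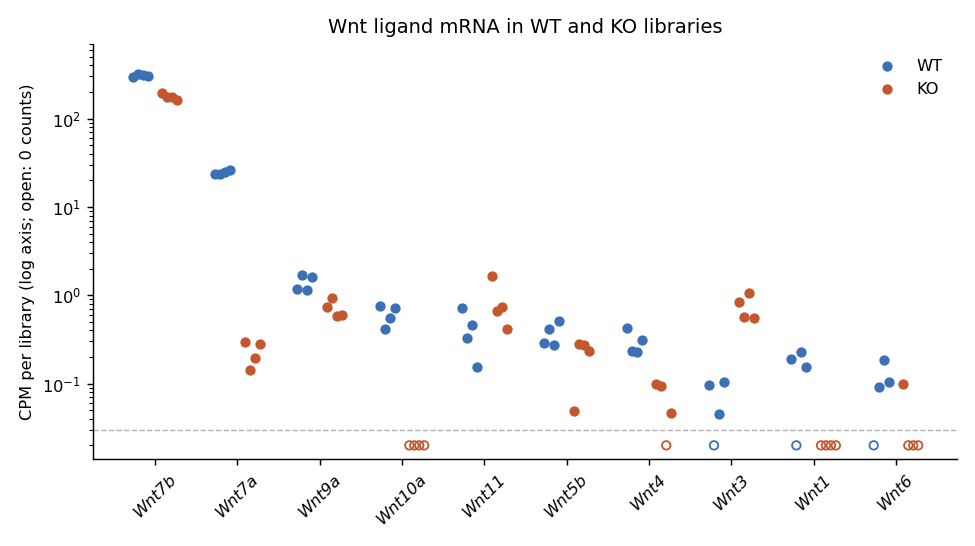
CPM (log axis) of 10 Wnt ligand genes in each of the 4 WT (blue) and 4 KO (orange) libraries; open circles under the dashed line are libraries with 0 counts. Wnt7b is highest in both lines, Wnt7a drops from 23.6 or more to 0.297 or less, and Wnt10a and Wnt1 have no KO count.

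The machinery that matures and releases ligands did not pass the test. Porcn, the acyltransferase that lipidates WNT proteins, had 20.9, 18.7, 18.3 and 19.8 CPM in the WT libraries and 23.6, 18.1, 21.1 and 19.5 CPM in the KO libraries. Its groups overlapped and it did not pass (log2 fold change 0.08 ± 0.09, SE; edgeR adjusted p = 0.409). Wls, the carrier that brings ligands to the cell surface, had 129, 128, 121 and 123 CPM in the WT libraries and 123, 119.9, 117 and 116 CPM in the KO libraries, with overlapping groups. Its log2 fold change was -0.07 ± 0.05 (SE; edgeR adjusted p = 0.198), and by library size alone it passed as lower (log2 fold change -0.16, adjusted p = 0.008).

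Of 10 Frizzled receptor genes, 8 were tested, of which 6 fell and 2 rose, the most abundant among the latter. Of all tested genes 33.6% fell and 34.4% rose, and whether the family differs from other genes was not tested. Fzd7, a receptor often linked to stem and tumour cells, led in both lines, with 47.7, 46, 45.7 and 44.6 CPM in the WT libraries and 55.8, 47.2, 55.3 and 51.2 CPM in the KO libraries. It rose slightly, with groups that overlapped (log2 fold change 0.19 ± 0.06, SE; edgeR adjusted p = 0.0123), and did not pass by library size alone (0.10, adjusted p = 0.166). Fzd2 fell to 36.8% of the WT level, with a 95% interval of 31.7% to 42.7%, with 14.6, 17.5, 16 and 16.6 CPM in the WT libraries and 4.66, 5.89, 6.53 and 6.58 CPM in the KO libraries (edgeR adjusted p = 8.15e-11). Fzd5, a receptor of the canonical branch in intestinal and eye epithelium, fell to 44.7% of the WT level, with a 95% interval of 39.1% to 51.1%, with 21.6, 21.7, 23.4 and 23.3 CPM in the WT libraries and 12.5, 8.39, 9.67 and 9.73 CPM in the KO libraries (edgeR adjusted p = 5.45e-10). For both genes every KO library lay below every WT library.

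Fzd1 showed the deepest fall of the family. It had 3.81, 4.17, 3.58 and 3.19 CPM in the WT libraries and 0.644, 0.801, 1.36 and 0.695 CPM in the KO libraries, a log2 fold change of -2.03 ± 0.22 (SE; edgeR adjusted p = 2.27e-08). Its groups did not overlap, and KO replicate 3 was the highest KO library. Fzd9, at 0.864 ± 0.294 CPM in WT and 0.276 ± 0.232 CPM in KO (SD, n = 4), fell as well (log2 fold change -1.55 ± 0.43, SE; edgeR adjusted p = 0.00273), but the groups overlapped because KO replicate 3, at 0.583 CPM, lay above the lowest WT library. Fzd6, which acts in planar polarity, and Fzd4, the receptor of norrin, fell 1.54-fold and 1.45-fold (edgeR adjusted p = 5.09e-05 and 0.00934). Fzd3, a receptor of axon guidance and planar polarity, rose 1.91-fold from 1.25 ± 0.376 CPM to 2.37 ± 0.492 CPM (SD, n = 4; edgeR adjusted p = 0.00105). Fzd8 had 2 counts in WT and 0 in KO, and Fzd10 had none.

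The make-up of the receptor family shifted with these changes. Per kilobase of exon the 10 Frizzled genes summed to 22.1 ± 0.489 CPM per kb in WT and 17 ± 1.2 in KO (SD, n = 4). Fzd7 made up 46% ± 1.43 of this in WT and 67.9% ± 1.71 in KO, while Fzd2 went from 20.0% ± 1.36 to 9.52% ± 1.54 and Fzd5 from 14.8% ± 0.917 to 8.55% ± 1.24 (SD, n = 4). The ranges of the 4 libraries did not overlap between genotypes for these 3 shares.

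**Figure D3:**
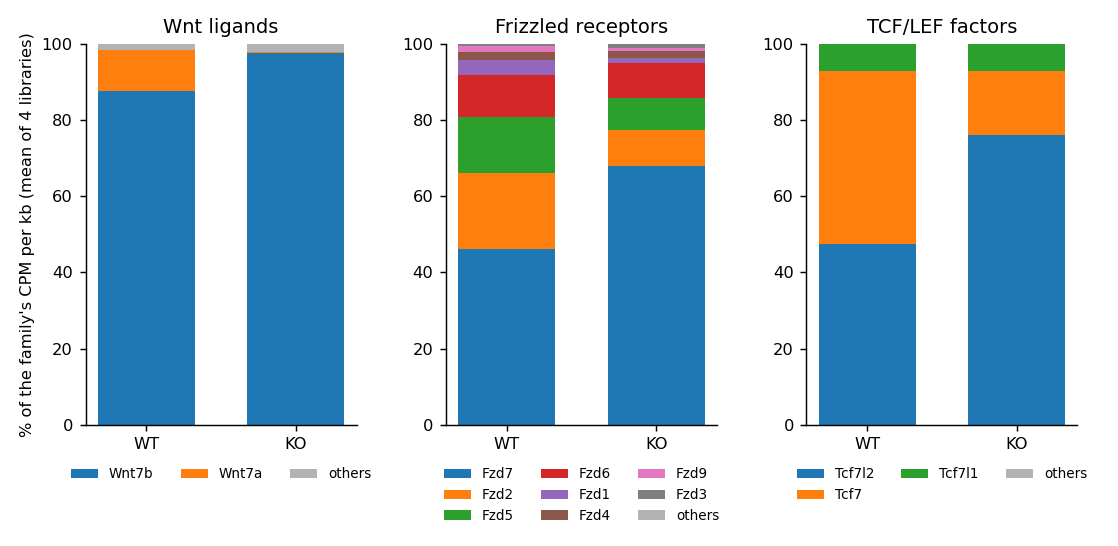
Mean share (4 libraries) of each gene in the summed CPM per kilobase of exon of the Wnt ligands, Frizzled receptors and TCF/LEF factors, in WT and KO; genes with a share under 1% in both are pooled as others. Wnt7a is a bare line in the KO ligand bar, and Fzd7 and Tcf7l2 each take a larger part of their family in KO.

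The canonical co-receptors stayed well expressed. Lrp5 rose to 128% of the WT level, with a 95% interval of 119% to 138%, with 256, 273, 260.2 and 247 CPM in the WT libraries and 345, 310.0, 349.7 and 325 CPM in the KO libraries, which did not overlap (edgeR adjusted p = 4.56e-06). Lrp6 had 146, 159, 149.8 and 142 CPM in the WT libraries and 134, 116, 148 and 122 CPM in the KO libraries, which overlapped. It passed as lower (log2 fold change -0.20 ± 0.07, SE; edgeR adjusted p = 0.0104), but not without KO replicate 2 (adjusted p = 0.0603) or KO replicate 4 (0.0526). Ryk, a pseudokinase receptor, stood at 76.5 ± 3.86 CPM in WT and 72.3 ± 8.32 CPM in KO (SD, n = 4) and did not pass (edgeR adjusted p = 0.313). Without KO replicate 3, the highest of the 8 libraries, it passed as lower (log2 fold change -0.16, adjusted p = 0.0132). Ror1 and Ror2, receptors of WNT5A, had 4 and 1 counts in WT and 0 in KO.

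The 2 ubiquitin ligases that clear Frizzled from the surface moved in opposite directions. Rnf43, which lies on chromosome 11, plus strand, 87553548 to 87626365 in GRCm39, had 14, 16.1, 15 and 14.1 CPM in the WT libraries and 49.7, 40.6, 35.5 and 43.4 CPM in the KO libraries. Every KO library lay above every WT library, and it rose to 285% of the WT level, with a 95% interval of 251% to 323% (log2 fold change 1.51 ± 0.09, SE; edgeR adjusted p = 1.75e-12). Its partner Znrf3 had 22.7, 21.5, 21.8 and 21.3 CPM in the WT libraries and 10.5, 11.2, 12 and 12.9 CPM in the KO libraries, all lower in KO, and fell to 53.4% of the WT level, with a 95% interval of 47.7% to 59.8% (edgeR adjusted p = 2.06e-09). Per kilobase of exon, Znrf3 was at 2.77 ± 0.0794 and Rnf43 at 2.26 ± 0.149 CPM per kb in WT, and at 1.47 ± 0.129 and 6.45 ± 0.909 in KO (SD, n = 4), so their order was reversed. Of the 6 nearest tested protein-coding genes, 3 on each side of Rnf43, 3 were higher and 1 was lower in KO, beside 34.4% and 33.6% of all tested genes. Their log2 fold changes were -0.23 to 6.80, the last that of Tspoap1, named after its value was seen.

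Of the R-spondin receptors the 2 tested fell. Lgr6 had 43.5, 43.1, 44.4 and 45.9 CPM in the WT libraries and 26.3, 21, 21.8 and 25.3 CPM in the KO libraries, and Lgr4 had 36.1, 36.5, 35 and 35.3 CPM in the WT libraries and 27.8, 21.4, 23.6 and 25.8 CPM in the KO libraries. In neither gene did the groups overlap, and the log2 fold changes were -0.91 ± 0.07 and -0.54 ± 0.08 (SE; edgeR adjusted p = 2.6e-10 and 1.47e-06). Lgr5, the stem cell marker of the intestine and a target of the canonical branch, had 2, 5, 2 and 3 counts in WT and 0 in all KO libraries, 4.24-fold lower with KO set to 3 counts for the group. It was too scarce for the test. With no filter on low counts it had an edgeR adjusted p of 0.00267, which is not on the scale of the reported fit. The ligands of these receptors, Rspo1 to Rspo4, had 0 counts in all libraries.

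The Sfrp, Dickkopf and Notum inhibitor genes had few or no counts in both lines. The 4 Sfrp genes, whose products bind WNT proteins, had at most 3 counts over a group, and Sfrp2 had none. Of the Dickkopf genes, whose products block LRP5 and LRP6, Dkk1 and Dkk4 had 0 counts, Dkk3 had 3 in WT and 0 in KO, and Dkk2 had 2, 1, 4 and 3 counts in WT and 0 in KO, 3.53-fold lower with KO set to 3 counts for the group. Notum, the secreted enzyme that strips the lipid from WNT proteins, had 5, 6, 4 and 3 counts in WT and 2, 3, 2 and 1 in KO, and none of these 9 inhibitor genes passed the filter for the test. With no filter on low counts Dkk2 passed (edgeR adjusted p = 0.00711), a value not on the scale of the reported fit.

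Of the 6 tested genes Dvl1, Dvl2, Dvl3, Axin1, Apc and Ctnnb1, the last had the largest fold change. Ctnnb1 encodes beta-catenin, which serves both as the transcriptional effector and as a link of cadherins to the cytoskeleton. It lies on chromosome 9, plus strand, 120758282 to 120789573 in GRCm39 and had 1915, 1934, 1719 and 1851 CPM in the WT libraries and 1069, 1054, 1065 and 1006 CPM in the KO libraries. Every KO library lay below every WT library, and 56.5% of the WT level, with a 95% interval of 52.2% to 61.2%, remained (log2 fold change -0.82 ± 0.06, SE; edgeR adjusted p = 2.43e-11). Its level per kilobase exceeded that of 99.3% of tested genes in WT and 98.5% in KO. The end of Ctnnb1 shares 5157 bp with Ulk4 on the other strand, which had 13.9 CPM in WT and 6.03 CPM in KO. The scaffold genes of the destruction complex did not pass. Apc had 92.8, 94.6, 91.2 and 89.6 CPM in the WT libraries and 95.8, 90.8, 103 and 93.9 CPM in the KO libraries and Axin1 57.3, 60.9, 54.9 and 60.1 CPM in the WT libraries and 52.9, 57.7, 57.8 and 54.2 CPM in the KO libraries, with overlapping groups and log2 fold changes of 0.06 ± 0.05 and -0.07 ± 0.06 (SE; edgeR adjusted p = 0.326 and 0.33). By library size alone Axin1 passed as lower (-0.15, adjusted p = 0.0426).

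The Dishevelled genes, which relay the signal from Frizzled, changed by small steps. Dvl1, the most abundant of them per kilobase, stood at 199.7 ± 10.5 CPM in WT and 173 ± 19.9 CPM in KO (SD, n = 4), with overlapping groups, and Dvl3 at 44.7 ± 2.78 CPM and 37 ± 1.18 CPM, without overlap. Both passed as lower, at -0.21 ± 0.07 and -0.27 ± 0.06 on the log2 scale (SE; edgeR adjusted p = 0.00911 and 0.000656). Dvl2 had a log2 fold change of -0.12 ± 0.07 and did not pass (adjusted p = 0.14); it passed as lower by library size alone (adjusted p = 0.0144) and without KO replicate 1 (0.04). Nkd2, an inhibitor that binds Dishevelled, had 14 counts in WT and 8 in KO.

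**Figure D4:**
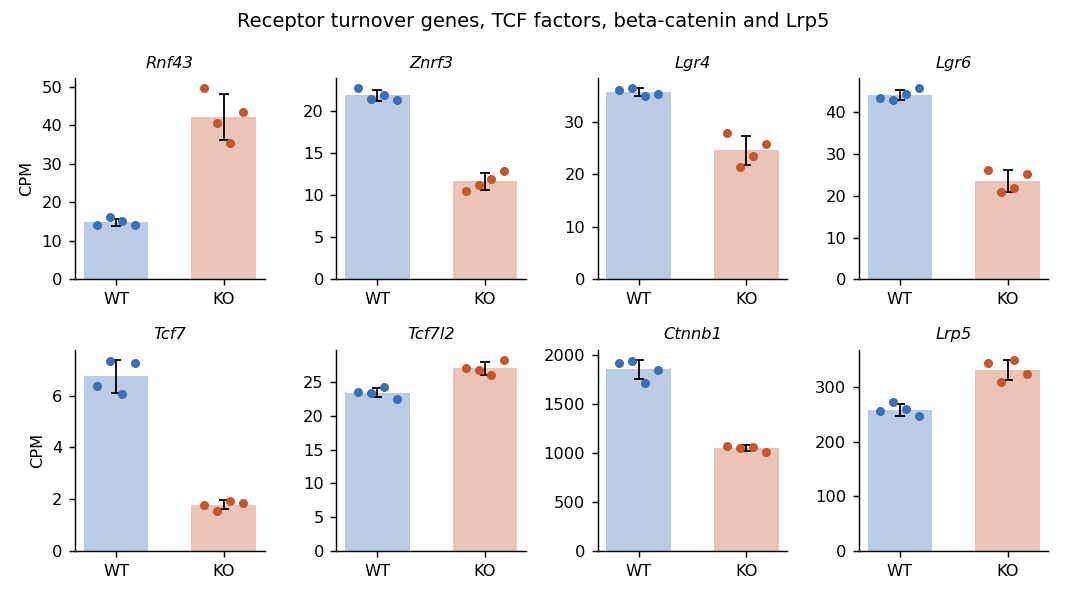
CPM of 8 WNT genes in WT and KO, with 1 point per library (replicates 1 to 4 from left to right), bars at the mean and error bars of 1 SD (n = 4); each panel has its own axis from 0. Rnf43, Tcf7l2 and Lrp5 are higher in every KO library, and Znrf3, Lgr4, Lgr6, Tcf7 and Ctnnb1 lower.

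The TCF factors that carry beta-catenin to its genes changed in make-up. Tcf7, which encodes TCF1, had 6.38, 7.32, 6.05 and 7.26 CPM in the WT libraries and 1.78, 1.55, 1.94 and 1.85 CPM in the KO libraries. Its groups were far apart, and it fell to 26.6% of the WT level, with a 95% interval of 21.7% to 32.6% (log2 fold change -1.91 ± 0.15, SE; edgeR adjusted p = 1.41e-10). Tcf7l2, which encodes TCF4, the main factor of intestinal epithelium, had 23.6, 23.5, 24.2 and 22.5 CPM in the WT libraries and 27.1, 26.8, 26.1 and 28.3 CPM in the KO libraries. These values did not overlap and it rose slightly (log2 fold change 0.21 ± 0.07, SE; edgeR adjusted p = 0.0111), though not by library size alone (0.12, adjusted p = 0.129). Tcf7l1, a factor known mostly as a repressor, had 1.52, 1.81, 1.33 and 1.6 CPM in the WT libraries and 1.24, 1.41, 1.32 and 0.602 CPM in the KO libraries, and did not pass (edgeR adjusted p = 0.114). Lef1 had 1 count in WT and 0 in KO. Of the summed level per kilobase of these 4 genes, Tcf7l2 made up 47.4% ± 3.02 in WT and 76% ± 2.29 in KO, and Tcf7 45.5% ± 2.58 and 16.8% ± 1.47 (SD, n = 4).

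Of the feedback genes by which canonical signalling is commonly read, only Rnf43 and Znrf3 had enough counts to be tested. Axin2 and Nkd1 had 0 counts in all 8 libraries, which allows up to 0.0358 CPM in WT and 0.0338 CPM in KO, against 1855 and 1048 CPM of Ctnnb1. Lef1, Lgr5 and Notum had 1, 12 and 18 counts in WT and 0, 0 and 8 in KO. Sp5, a further target of beta-catenin outside the 63 genes, had 1 count in WT and 0 in KO. For Axin2 and Nkd1 a difference between the lines was therefore not detectable at this depth.

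Promoters were read for the genes changed at least 2-fold, since these moved in both directions. RefSeq's table for GRCm38.p6 matched 8 of the 9 by symbol, with 11 start sites. Each window, which runs from upstream of a start to just inside the transcript, was searched for the core of TCF and LEF sites, CTTTGA on either strand, and for the cAMP response element TGACGTCA, the site of CREB, which reads the same on both strands. The core was in 2 of the 11 windows, for Fzd1 and Wnt11, and in 16% of the 32851 windows in the table. The cAMP response element was in none of the 11 and in 1.79% of all. A match in 6 letters is a description of sequence and not a binding site, and a missing match says nothing of the factor. The bases upstream of the start are shown for the deepest fall (Wnt7a, chr6:91411354-91411603, minus strand), for the deepest fall among receptors (Fzd1, chr5:4758217-4758466, minus strand), whose match to the core is in capitals, and for the largest rise of a well counted gene (Rnf43, chr11:87662837-87663086, plus strand, the farther upstream of its 2 starts), each 5′ to 3′ on the strand of the gene.
Wnt7a: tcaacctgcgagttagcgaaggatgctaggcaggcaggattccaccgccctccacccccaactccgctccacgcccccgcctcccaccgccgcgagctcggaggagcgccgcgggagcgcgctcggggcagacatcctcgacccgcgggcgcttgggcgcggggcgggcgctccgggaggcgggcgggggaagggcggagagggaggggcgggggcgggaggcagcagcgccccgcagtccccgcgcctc
Fzd1: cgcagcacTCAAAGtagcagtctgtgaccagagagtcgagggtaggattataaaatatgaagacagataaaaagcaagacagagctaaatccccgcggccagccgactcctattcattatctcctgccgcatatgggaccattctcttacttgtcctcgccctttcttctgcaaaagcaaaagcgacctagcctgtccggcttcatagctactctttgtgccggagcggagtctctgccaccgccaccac
Rnf43: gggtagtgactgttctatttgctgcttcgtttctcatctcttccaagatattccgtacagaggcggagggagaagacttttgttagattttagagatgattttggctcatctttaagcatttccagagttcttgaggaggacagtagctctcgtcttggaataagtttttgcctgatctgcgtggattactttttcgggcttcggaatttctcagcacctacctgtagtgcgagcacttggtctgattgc
The windows of Wnt7a and Fzd1 held 76% and 54% G and C, and that of Rnf43 46.7%.

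Other genes of the pathway were followed in 6 lists written from general knowledge, 112 genes without the 63 above. Of 73 tested, 30 rose and 28 fell, which is 79.5% passing against 68% of all tested genes. Kinases and other parts around the destruction complex shifted by small steps: of 19 tested, 12 rose, 4 fell and 3 did not pass, none of them 2-fold. Csnk1a1, the kinase CK1 alpha that primes beta-catenin for degradation, rose from 318 ± 5.48 CPM to 555 ± 2.64 CPM (SD, n = 4) and Csnk1g3, a membrane-bound relative, rose 1.36-fold. Csnk1e and Csnk1d, which act on Dishevelled, were 1.43-fold and 1.17-fold lower. All 4 passed, Csnk1d with the highest edgeR adjusted p (0.000398). The 16 tested nuclear partners of beta-catenin and TCF went both ways, and 8 rose, 6 fell and 2 did not pass. Ctbp1 and Tle3, which encode co-repressors, rose 1.63-fold and 1.39-fold, whereas Hipk2, a kinase of TCF proteins, and Tle6, a divergent member of the TLE co-repressors, were 1.81-fold and 2.26-fold lower. The highest edgeR adjusted p of these was 5.29e-08, for Tle3.

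Further lists covered inhibitors and agonists, mainly but not only those outside the cell and at its surface. Of 6 tested further WNT inhibitors none rose, 3 fell and 3 did not pass, so that 50% passed, against 68% of all tested genes. Apcdd1, a membrane inhibitor that binds WNT and LRP5, fell from 55.6 ± 4.59 CPM to 16.7 ± 1.4 CPM (SD, n = 4; edgeR adjusted p = 5.65e-15). Igfbp4, an IGF-binding protein that can also block LRP6, fell from 774 ± 27.6 CPM to 433 ± 27.6 CPM (edgeR adjusted p = 1.31e-11). The other that fell was Dact3, a Dishevelled antagonist named here after its value was seen (log2 fold change -2.01 ± 0.24, SE). Of 8 tested agonists and co-receptors, 4 rose, 2 fell and 2 did not pass, so that 75% passed, against 68% of all tested genes. Gpc1, a glypican, rose 2.16-fold and Tspan12, the tetraspanin partner of Fzd4, 3.01-fold (edgeR adjusted p = 2.24e-13 and 3.29e-07), while Mesd, the chaperone of LRP5 and LRP6, fell 1.16-fold with overlapping groups (adjusted p = 0.00521).

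Reck and Adgra2 (GPR124) together form the co-receptor through which brain endothelial cells sense WNT7A and WNT7B. Reck had 3.52, 5.79, 5.55 and 5.41 CPM in the WT libraries and 2.87, 2.97, 3.07 and 3.89 CPM in the KO libraries, and it fell with overlapping groups (log2 fold change -0.66 ± 0.16, SE; edgeR adjusted p = 0.00119). Adgra2 had 20.1, 18.5, 20.0 and 18 CPM in the WT libraries and 26.1, 22.5, 19.6 and 22.5 CPM in the KO libraries, also overlapping, and rose (log2 fold change 0.24 ± 0.09, SE; edgeR adjusted p = 0.018). Both genes were still expressed in the KO line, which had almost no Wnt7a but a mean of 177 CPM of Wnt7b.

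Planar polarity genes went both ways. Of 10 tested, 2 rose, 4 fell and 4 did not pass, so that 60% passed, against 68% of all tested genes. Vangl2, a core polarity protein, was under the filter for the test and had 0, 1, 1 and 0 counts in WT and 10, 11, 12 and 12 in KO, without overlap, a ratio of 21.2 (95% counting interval 5.55 to 181); it is named after its value was seen. Daam1, a formin that binds Dishevelled, rose from 105 ± 2.75 CPM to 185 ± 7.23 CPM (SD, n = 4) and Vangl1, a relative of Vangl2, rose 1.2-fold. Prickle1, its cytoplasmic partner, fell from 12.8 ± 0.562 CPM to 3.94 ± 1.04 CPM (SD, n = 4) and Celsr2, an atypical cadherin, fell 1.91-fold with an edgeR adjusted p of at most 0.00287 (Vangl1) in these 4 genes.

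Genes known as targets of beta-catenin in other tissues went both ways. Of 14 tested, 4 rose, 9 fell and 1 did not pass, beside 34.4% higher and 33.6% lower among all tested genes; whether the list differs from other genes was not tested. Id2, an inhibitor of helix-loop-helix factors, fell from 28.9 ± 1.36 CPM to 1.79 ± 0.651 CPM (SD, n = 4), and Myc from 1007 ± 17.4 CPM to 355 ± 12.3 CPM (edgeR adjusted p = 4.87e-17 and 1.35e-16). In the other direction Ppard, a lipid-sensing nuclear receptor, rose 1.81-fold and Birc5, which encodes survivin, 1.88-fold (edgeR adjusted p = 2.37e-11 and 7.07e-11). These genes answer to many other signals, and 7 of the 23 in the table, among them Mmp7, Cdx1 and Tnfrsf19, had 0 counts in all libraries.

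**Figure D5:**
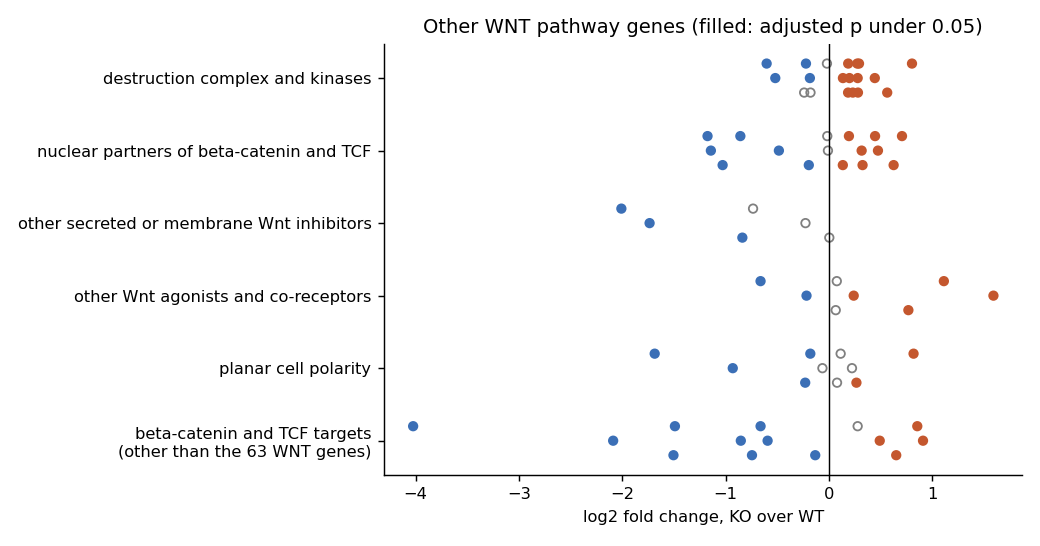
Log2 fold change (KO over WT, 4 libraries per genotype) of the tested genes in 6 lists of other WNT pathway genes; filled points had an edgeR adjusted p under 0.05 (orange higher, blue lower in KO), open points did not, and the vertical offset of points has no meaning. The further inhibitors have no filled point to the right of 0, and Id2 at -4.02 is the lowest target gene.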

How the data were processed

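The deposited tables hold raw counts of 56884 genes in 8 libraries and, for 15726 genes, the authors' log2 CPM in voom's form; 34 of the 63 WNT genes are in the second. Per the submitters' processing notes, the tools were STAR 2.7.9a, featureCounts 1.6.0, FastQC 0.11.8, limma and edgeR, with GRCm39. Counting settings for strand and multi-mapping reads were not given in the sources used here. Libraries came from a stranded mRNA kit and were read paired-end, per the labels' protocols.

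The count test was edgeR 4.0.16 (glmQLFit with robust estimation, glmQLFTest) with a single term for genotype, filterByExpr at its defaults and TMM scaling, fitted over 13707 genes with Benjamini-Hochberg adjustment at 0.05. "Rose" and "fell" mean that a gene passed. CPM divides each count by the TMM-scaled size of its library. The SE is the absolute log2 fold change over the square root of F. For a large change on few counts it can fall short of counting error, as for Wnt7a. Single values were tested by exact permutation over 70 assignments (scipy 1.17.1). The steps were run on simulated counts with few changed genes and a single dispersion for all genes. In these data 68% of tested genes passed, so that check does not cover scaling or false calls here. The count table holds no exon lengths, so levels per kilobase use the exon union of GENCODE M21 (GRCm38), chosen after the table was seen, which need not match the counted annotation. Counting intervals and floors cover counting error only.

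Genes, lists and tests were chosen with earlier results of these data known. Values per library are given, by rule, for WNT genes that passed with a change of at least 2-fold, no overlap and 1 CPM or more in the higher group, and for 17 genes listed by role; for Wnt7b, Wnt9a, Wnt3, Wnt11, Fzd7, Lgr4, Lgr6 and scarce genes they were added after their values were seen. From each pathway list, at most 2 genes per direction are named, those of lowest adjusted p. Names beyond this were chosen after values were seen. Reck, Adgra2 and Stk11 were fixed by name. One list gene, Tbxt, did not match the table by symbol. Alternatives were DESeq2 size factors, upper quartile or no scaling, other filters, DESeq2 1.42.0, limma-voom and limma 3.58.1 on the deposited log2 values, glmTreat, a replicate block, edgeR's legacy fit (added after the data were seen) and leaving out each library. Same-numbered WT and KO libraries did not deviate together (correlation across genes -0.0985 to 0.0356), so numbers were not used as pairs.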

Additional observations from a re-analysis of the deposited data

How the results depend on the processing

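The alternatives to the test of any change numbered 18. Of 31 tested WNT genes, 23 kept their side of the threshold under every alternative that tested them. No WNT gene that passed in the reported fit or in an alternative had the opposite direction in the other. Apc and Porcn, which passed in neither fit, changed sign when scaled by library size alone. Tested against a 2-fold change by glmTreat, 2 WNT genes were higher and 4 lower, in place of 3 and 6 by fitted fold. The 8 others were Wnt11, Lrp6, Ryk, Dvl2, Fzd7, Tcf7l2, Axin1 and Wls, of which Wnt11 lost its call under the most alternatives. Scaled by library size alone, 4 WNT genes were higher and 20 lower in KO, where the reported fit had 7 and 17; the median log2 fold change of all genes was then -0.07, against 0.01. With no filter on low counts 11 WNT genes were at least 2-fold lower in place of 6, because more genes were tested, and with a filter of 1 CPM in 4 libraries 1 was at least 2-fold higher in place of 3, because fewer were. With the replicate block, which assumes a pairing that the libraries did not show, 7 WNT genes were higher and 17 lower, and 9182 of all genes passed in place of 9322. Without KO replicate 3, the library that stood apart, 7 were higher and 19 lower of 32 tested, and 69.3% of all tested genes passed. The depth leaves Axin2, Nkd1 and the other genes without counts unresolved under 0.0358 CPM.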
